A study of Mus musculus with 15 samples.

Results

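The 3 libraries described here are polyA RNA of mouse embryonic fibroblasts collected 13 days after the start of induced Neurog3 expression, labelled D13_Ngn3 with the replicate letters a, b and c. They were taken by label from a series of 15 libraries. They were set against the 3 libraries labelled Ctrl, and then against the 3 libraries of Neurog1 at day 13 and the 3 libraries of Neurog3 at day 1. The remaining 3 libraries, of Neurog1 at day 1, entered only the shared fit.

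Per the labels' protocols, all cells were mouse embryonic fibroblasts grown in DMEM with fetal bovine serum. The Neurog1 and Neurog3 groups carried a lentivirus that expresses the factor when doxycycline is present. Doxycycline was given on day 0, and on day 2 the fibroblast medium was replaced by a neuronal medium with N2 and B27 supplements. The day 13 groups had therefore been in neuronal medium for most of the culture, and the day 1 groups, collected at 24 h, had not yet received it. Whether the controls carried a virus, received doxycycline or changed medium, and how long they were cultured, is not given in the sources used here, so factor, medium and days in culture cannot be told apart in the comparison with the controls. No label tells whether libraries a, b and c of a group are separate cultures. The p-values therefore reflect how much these libraries differ among themselves, which may be technical. The controls had the levels of a fibroblast culture in the genes checked below: Col1a1, Col3a1, Vim, Acta2 and Thy1 were abundant, and the neuronal genes Snap25 and Rbfox3 were at or near 0.

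Neurog3 is a basic helix-loop-helix transcription factor of the proneural class. It binds E-box sequences together with a ubiquitous E protein partner and switches on other transcription factors, among them Neurod1, Insm1, Nhlh1 and the Notch ligand genes Dll1 and Dll4. In the embryo it is best known for specifying the endocrine cells of the pancreas and gut, and its relatives Neurog1 and Neurog2 specify sensory and cortical neurons. Notch ligands on the differentiating cell activate Notch receptors on neighbouring cells, which answer with Hes and Hey repressors. Embryonic fibroblasts are a common starting point for conversion into neurons by transcription factors.

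Gene counts summed to 16429989, 17244012 and 14869015 in Neurog3 day 13 libraries a, b and c, against 17395924, 16778296 and 17859844 in the controls. Between 21119 and 22504 genes had at least 1 count in the Neurog3 day 13 libraries, against 20252 to 20763 in the controls. Levels are given as CPM, counts divided by the size of their library after edgeR's TMM adjustment of library sizes for composition, always in the order of replicates a, b and c. The correlation of log2 CPM across genes was 0.959 to 0.969 among the Neurog3 day 13 libraries, and 0.760 to 0.833 between them and the controls. Mitochondrial transcripts took 1.66% to 3.22% of the counts at Neurog3 day 13, against 3.06% to 3.91% in the controls.

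Neurog3 itself had 1242, 5264 and 5074 CPM in the Neurog3 day 13 libraries, against 0, 0.0641 and 0 CPM in the controls, where library b held 1 count. The ratio over that single count was 183089 (95% counting interval 32861 to 7231680.5). Library a held much less Neurog3 than libraries b and c, and all 3 lay far above every control. Reads of the viral transcript and of the endogenous gene cannot be told apart. Per kilobase of exon, Neurog3 stood at 2306 CPM per kb, above Col1a1 at 1121 CPM per kb in the same libraries, a chain of type I collagen. The length used is that of the annotated gene, and the part of it carried by the virus may be shorter, so the Neurog3 value per kb is uncertain.

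The late Neurog3 state differed from the controls across much of the transcriptome, with 9719 of 16872 genes called. Of all genes tested, 5260 were higher in the Neurog3 day 13 libraries (31.2%) and 4459 were lower (26.4%) at an adjusted p under 0.05 in edgeR's quasi-likelihood test. A change of at least 2-fold was reached by 4044 of the higher and 3040 of the lower genes, and one of at least 64-fold by 454 and 94. In bulk RNA, a change in the number of cells of a type and a change in their RNA per cell cannot be told apart. The 6 libraries did not overlap for 5703 genes that were higher (33.8%) and 4871 that were lower (28.9%). The median log2 fold change over all genes was 0.10. With library totals in place of TMM that median moved by 0.31, to 0.40, and 6663 genes were higher and 3211 lower, so that 67.5% of the called genes were higher in place of 54.1%; 0 genes called in both fits changed direction.

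The genes that rose took up a large part of the RNA. They held 33.2%, 41.3% and 33.5% of all counts in Neurog3 day 13 libraries a, b and c, against 8.92%, 10.8% and 10.3% in the controls. Genes that fell held 33.3%, 26.0% and 31.4% of the counts, against 63.0%, 60.9% and 61.8%. In 200 of the genes that rose, the 3 control libraries had 0 counts together, and 45 of these reached a mean of 5 CPM, all of them protein coding. Another 303 rose over 1 to 3 control counts. For such genes the fold is given as a lower bound against 3 counts over the group, or as a ratio with its 95% counting interval; both cover counting error only. Where 0 members of a list or family are given as called in a direction below, the count was also 0 at an unadjusted p under 0.05 and by DESeq2.

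Transcription factors and targets of the proneural cascade rose. Of 32 such genes tested, 29 were higher in the Neurog3 day 13 libraries and 0 were lower, and the median log2 fold change was 5.34, or 4.99 with genes of 0 to 3 control counts set to their bounds. Over all genes the share higher was 31.2% and the median 0.10. Neurog1 and Gadd45g were among those not called, and Neurog2, Atoh1, Onecut1 and Pou3f2 did not pass the expression filter. The windows upstream of 5 of the genes that rose are printed here because the factor's binding word can be read in them. They are RefSeq windows of build GRCm38.p6, 5′ to 3′ on the strand of the gene and ending at the base before its start. Capitals mark E-box words. The word CAGATG was searched on both strands. The other words were CAGCTG, which reads alike on both strands, and in the same way the word CATATG.
Neurod1: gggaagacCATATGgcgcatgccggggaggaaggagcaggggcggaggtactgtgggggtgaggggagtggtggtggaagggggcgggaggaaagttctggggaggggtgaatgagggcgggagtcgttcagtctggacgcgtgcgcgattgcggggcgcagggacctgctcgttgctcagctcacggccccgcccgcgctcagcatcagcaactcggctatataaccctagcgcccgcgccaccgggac
Neurod2: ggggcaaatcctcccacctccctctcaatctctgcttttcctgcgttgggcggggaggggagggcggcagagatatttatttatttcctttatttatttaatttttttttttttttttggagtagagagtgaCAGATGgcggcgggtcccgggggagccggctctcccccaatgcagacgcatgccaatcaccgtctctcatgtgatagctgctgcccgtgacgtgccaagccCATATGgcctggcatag
Nhlh1: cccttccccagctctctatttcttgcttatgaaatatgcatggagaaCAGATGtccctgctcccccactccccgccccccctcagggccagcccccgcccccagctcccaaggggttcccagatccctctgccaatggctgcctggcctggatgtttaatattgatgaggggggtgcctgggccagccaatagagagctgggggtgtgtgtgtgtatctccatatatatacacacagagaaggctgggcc
Nhlh2: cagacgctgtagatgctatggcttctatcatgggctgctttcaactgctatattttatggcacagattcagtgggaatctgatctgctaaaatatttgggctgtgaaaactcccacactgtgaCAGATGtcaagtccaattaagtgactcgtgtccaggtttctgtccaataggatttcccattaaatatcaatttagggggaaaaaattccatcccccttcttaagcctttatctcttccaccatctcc
Srrm4: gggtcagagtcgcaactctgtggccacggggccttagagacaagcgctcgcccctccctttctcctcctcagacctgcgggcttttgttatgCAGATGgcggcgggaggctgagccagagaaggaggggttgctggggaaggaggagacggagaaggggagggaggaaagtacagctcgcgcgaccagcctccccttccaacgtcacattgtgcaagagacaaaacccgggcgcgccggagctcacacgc
The Neurod1 window is chr2:79456637-79456886 on the minus strand, that of Neurod2 is chr11:98329646-98329895 on the minus strand and that of Nhlh1 is chr1:172057597-172057846 on the minus strand. The Nhlh2 window is chr3:102009895-102010144 on the plus strand and that of Srrm4 is chr5:116591818-116592067 on the minus strand. Counted from the first base of the word to the gene's start, CAGATG lay 118 bases upstream in Neurod2, 203 in Nhlh1, 127 in Nhlh2 and 158 in Srrm4, and CATATG lay 242 bases upstream in Neurod1 and 17 in Neurod2. These matches describe letters in a window and show no binding.

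The same words were counted in all RefSeq windows from 250 bases before to 50 after a start, on both strands; no 2 matches overlapped. CAGATG was in 13.4% of 5035 windows of genes that rose, 10.6% of 3887 windows of genes that fell and 11.9% of 6154 windows of genes that were not called. CAGCTG was in 19.1%, 13.7% and 15.1% of the same windows, and CATATG in 2.52%, 1.29% and 1.64%. Of all 32851 windows in the table, 17.2% held CAGATG, 16.3% CAGCTG and 3.92% CATATG. Windows were found for 24 of the 32 proneural genes tested; of the 33 windows of those that rose, 8 held CAGATG, 10 CAGCTG and 4 CATATG.

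Neurod1, the bHLH factor that follows Neurog3 in endocrine and neuronal differentiation, had 22.7, 17.2 and 21.9 CPM in the Neurog3 day 13 libraries and 0 in every control library, at least 324-fold higher (adjusted p = 1.51e-06). Its relative Neurod2, a factor of maturing excitatory neurons, had 20.7, 27.2 and 21.8 CPM and again 0 in every control library, at least 367-fold higher. The 3 induced libraries lay close together for both genes. Neurod4 and Neurod6 rose to 2.33, 1.56 and 4.78 CPM and 2.67, 2.31 and 3.65 CPM, over controls without a count, at least 45.2-fold higher for Neurod4.

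The related factors Nhlh1 and Nhlh2, expressed in newly born neurons, were also at or near 0 in the controls. Nhlh1 had 272, 231 and 140.0 CPM in the Neurog3 day 13 libraries, against 0, 0 and 0.181 CPM in the controls, a ratio of 3388 (95% counting interval 1159 to 16431). Nhlh2 had 88.2, 46.4 and 46.8 CPM over controls at 0, at least 951-fold higher. For both genes library a was the highest, and it held the least Neurog3.

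Insm1, a zinc finger factor of neuronal and endocrine progenitors, had 60.5, 72.7 and 62.1 CPM at Neurog3 day 13, against 0.199, 0 and 0 CPM in the controls, a ratio of 1028 (95% counting interval 351 to 4985). Myt1 and Myt1l, zinc finger repressors of non-neuronal genes, had 25.1, 36.3 and 30.1 CPM and 26.9, 36.6 and 50.2 CPM, each over 1 control count. Cbfa2t3, a corepressor induced by proneural factors, had 60.6, 119 and 76.0 CPM, against 0.132, 0.128 and 0.362 CPM in the controls (log2 fold change 8.61, SE 0.49, adjusted p = 2e-08). In each of these genes every Neurog3 day 13 library lay far above every control library. Rcor2, a CoREST family corepressor, was higher by a log2 fold change of 4.09, at 231, 243 and 224 CPM against 6.42, 17.2 and 17.3 CPM.

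Factors that fibroblasts already expressed rose by less. Ebf3, a factor of neuronal differentiation, had 211, 287 and 235 CPM at Neurog3 day 13, against 33.9, 33.2 and 24.1 CPM in the controls (log2 fold change 3.01, SE 0.20, adjusted p = 5.25e-08). Sox11 had 224, 270.4 and 264 CPM against 62.7, 71.9 and 67.9 CPM (log2 fold change 1.91), and Sox4 127, 219.6 and 192 CPM against 84.8, 92.1 and 97.0 CPM (log2 fold change 0.98). Hes6, an antagonist of Hes1, had 148, 99.8 and 109 CPM against 10.7, 29.2 and 15.9 CPM (log2 fold change 2.68, SE 0.40, adjusted p = 4.87e-05). The groups did not overlap in any of these 4 genes. Over all genes tested, 33.8% were higher without overlap. Per kilobase of exon, Hes6 was at 65.9 CPM per kb in the Neurog3 day 13 libraries, Insm1 at 21, Nhlh2 at 11.2, Dll1 at 8.68, Neurod1 at 7.55 and Myt1l at 2.70 CPM per kb.

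**Figure D1:**
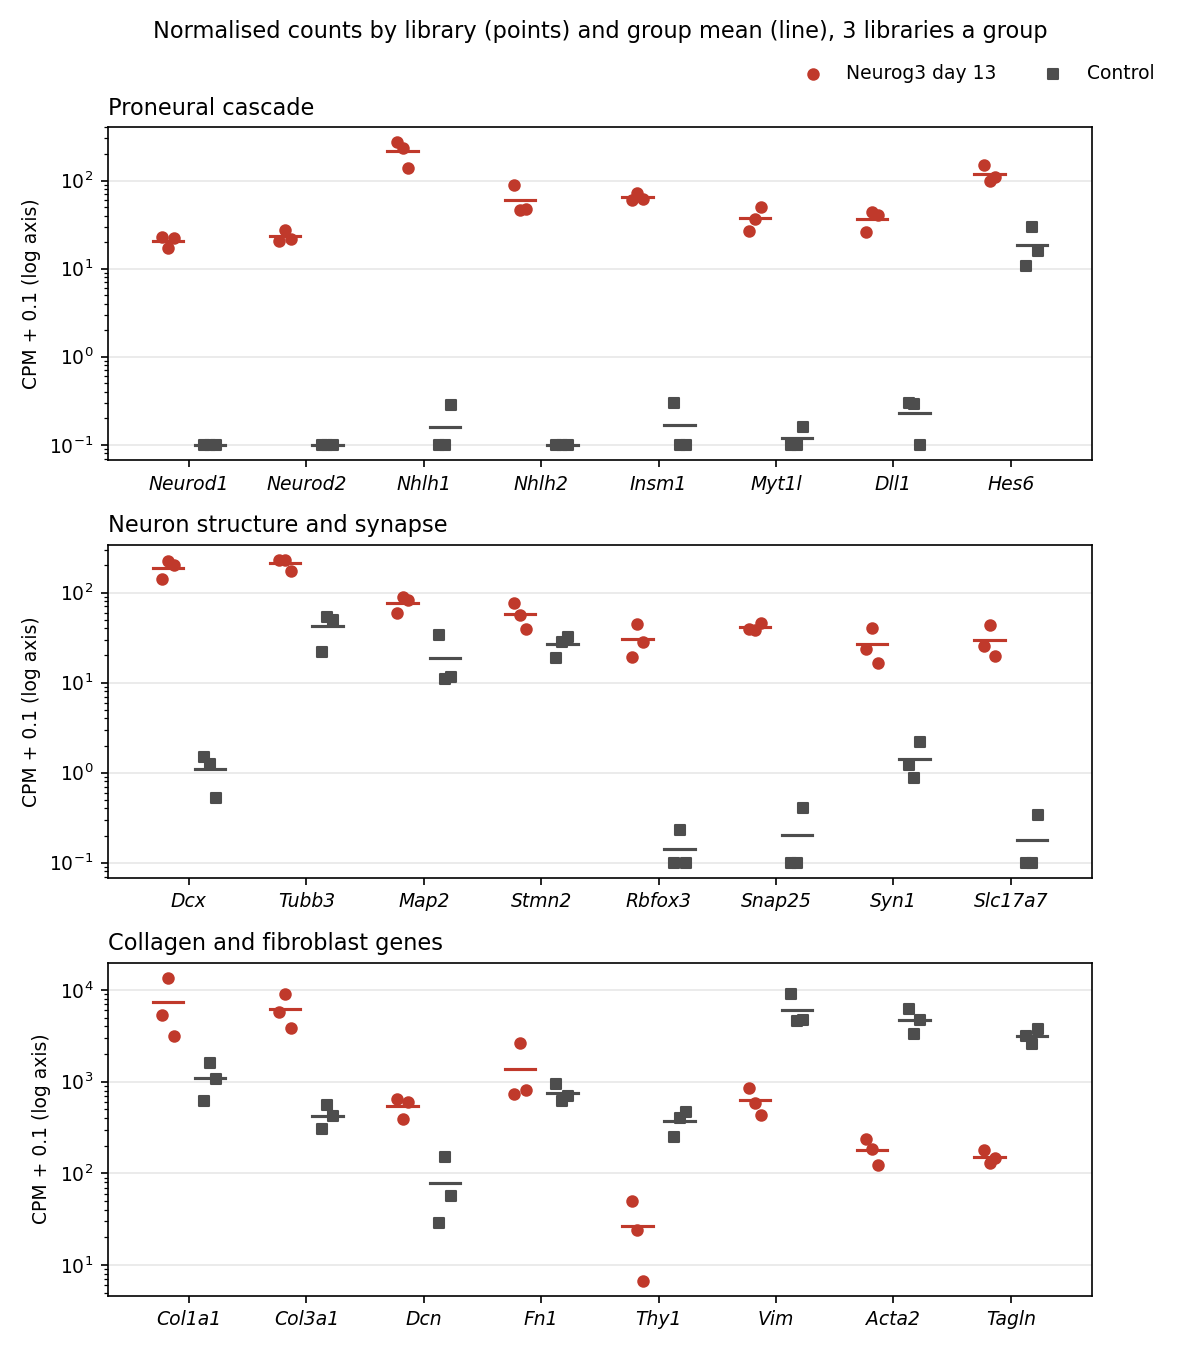
Normalised counts (CPM + 0.1, log axis) of 24 genes in 3 Neurog3 day 13 libraries (red circles) and 3 control libraries (grey squares), with lines at group means. Neurod1, Neurod2 and Nhlh2 lie at 0 CPM in every control; Acta2, Tagln, Vim and Thy1 lie lower, and Col1a1, Col3a1 and Dcn higher, in every Neurog3 day 13 library than in any control.

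The Notch pathway moved on both sides. The ligand Dll1 had 26.0, 43.7 and 40.1 CPM in the Neurog3 day 13 libraries, against 0.199, 0.192 and 0 CPM in the controls (log2 fold change 8.09, SE 0.42, adjusted p = 9.95e-09). Dll3, a ligand that acts within the cell, and Dll4 had 12.7, 19.2 and 9.72 CPM and 3.28, 7.25 and 4.10 CPM, with log2 fold changes of 7.24 and 5.74. Each control library held at most 3 counts of any of these genes.

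Of 19 receptors, other ligands and effectors tested, 12 were higher at Neurog3 day 13 and 2 were lower, with a median log2 fold change of 0.94. Jag2 had 8.95, 14.0 and 12.1 CPM against 0.596, 0.256 and 0.543 CPM in the controls, and the neuronal Notch ligand Dner 87.9, 161 and 90.0 CPM against 0.861, 0.833 and 0.664 CPM (log2 fold change 7.16, SE 0.57, adjusted p = 2.07e-07). The effectors split. Heyl and Hey1 rose, with 16.1, 19.3 and 19.7 CPM against 0.0662, 0.512 and 0.362 CPM for Heyl (log2 fold change 5.82), while Hes1 fell to 17.4, 19.7 and 17.8 CPM, against 42.8, 49.6 and 54.6 CPM in the controls (log2 fold change -1.42, SE 0.39, adjusted p = 0.00539). Notch3 had 15.6, 61.5 and 16.1 CPM against 3.31, 7.17 and 6.03 CPM, and library b was far above a and c. Hes5, the usual Notch target in neural tissue, did not pass the expression filter.

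Most genes of the pancreatic and enteroendocrine list were at or near 0 in both groups. Of 25 genes listed, 9 could be tested, 5 rose and 0 fell. Pdx1, the factor of the pancreatic bud, had 0 counts in all 6 libraries. Ins2, an insulin gene, had 4, 1 and 5 counts in Neurog3 day 13 libraries a, b and c, against 0 in the controls, and Nkx2-2, a factor of endocrine precursors, had 8, 10 and 5 counts against 0. Gcg, the glucagon gene, had 1, 0 and 2 counts against 0.

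Among the members that rose were Sct, Sst and Mafa. Sct, which encodes the gut hormone secretin, had 212, 101 and 223 CPM at Neurog3 day 13, against 0, 0.128 and 0 CPM in the controls, a ratio of 4198 (95% counting interval 1162 to 34669). Per kilobase of exon it stood at 277 CPM per kb, against 65.9 CPM per kb for Hes6. Sst, encoding somatostatin, had 4.502, 2.04 and 3.03 CPM over controls at 0, at least 50.1-fold higher. Cck, encoding cholecystokinin, was not called, at 16.1, 35.2 and 134 CPM against 13.7, 14.2 and 34.8 CPM (adjusted p = 0.074), and its groups overlapped.

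Genes of the regulated secretory pathway, shared by endocrine cells and neurons, rose in most cases. Of 18 tested, 14 rose and 2 fell, with a median log2 fold change of 6.26 (4.80 at the bounds). Chga, the granule protein chromogranin A, had 49.4, 41.2 and 16.5 CPM over controls at 0, at least 565-fold higher. Chgb had 78.7, 40.5 and 22.8 CPM against 0.0662, 0.128 and 0 CPM, a ratio of 746 (95% counting interval 255 to 3618). In both, library a was the highest and c the lowest. Pcsk2, a convertase that cleaves prohormones, had 49.3, 54.5 and 29.1 CPM over 1 control count. Cadps, which primes dense-core vesicles, had 81.2, 129 and 116 CPM against 0.0662, 0.0641 and 0.241 CPM (log2 fold change 9.66). The members that fell were Rab3b, a vesicle GTPase, and Nucb2, the nesfatin precursor, at 40.3, 26.9 and 35.4 CPM against 60.9, 68.0 and 68.1 CPM.

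Neuropeptide genes were mixed: of 14 tested, 6 rose (42.9%) and 4 fell (28.6%), with a median log2 fold change of 0.66. Over all genes 31.2% rose and 26.4% fell, so the lower share was near that over all genes. Calca, the precursor of calcitonin and CGRP, had 9.34, 7.20 and 4.78 CPM at Neurog3 day 13, against 0.0662, 0.0641 and 0.302 CPM in the controls (log2 fold change 5.53, SE 0.73, adjusted p = 1.54e-05). Cartpt, a peptide of appetite and reward circuits, had 0.556, 0.913 and 16.4 CPM over controls at 0, so most of its counts came from library c. Penk, the enkephalin precursor, fell to 9.73, 5.80 and 1.46 CPM, against 22.2, 37.0 and 33.7 CPM, and Tac1, which encodes substance P, to 0.445, 0.107 and 0.0562 CPM, against 6.36, 5.38 and 6.52 CPM.

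Genes of the neuronal cytoskeleton also rose in most cases. Of 37 tested, 26 were higher at Neurog3 day 13, 3 were lower and 8 were not called, with a median log2 fold change of 2.04. Dcx, the microtubule protein of migrating young neurons, had 141, 226 and 202 CPM against 1.39, 1.15 and 0.422 CPM in the controls (log2 fold change 7.58, SE 0.81, adjusted p = 2.3e-06). Tubb3, the neuronal beta tubulin, had 229.9, 229 and 172 CPM against 21.9, 53.9 and 49.8 CPM (log2 fold change 2.33, SE 0.54, adjusted p = 0.0017). The dendritic protein Map2 had 59.8, 88.7 and 81.8 CPM against 33.9, 10.9 and 11.5 CPM (log2 fold change 2.04), and control a was the highest of the controls.

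Some genes of growing axons were lower. Gap43, a protein of growing axons, had 53.9, 31.9 and 19.3 CPM against 68.3, 73.5 and 77.9 CPM in the controls (log2 fold change -1.06, SE 0.39, adjusted p = 0.0287), so it was lower in every Neurog3 day 13 library. Dpysl3 and Tubb2b fell too, Tubb2b to 114, 97.6 and 74.5 CPM, against 156, 172 and 189 CPM. With library totals in place of TMM, 0 of these 3 genes were called (log2 fold changes -0.78 for Gap43, -0.37 for Dpysl3 and -0.56 for Tubb2b), and Gap43 was also lost without any 1 of Neurog3 day 13 b or c or Control b or c (adjusted p 0.0512 to 0.11). Tuba1a, an alpha tubulin, was not called, at 2349.7, 1994 and 1682 CPM against 1838, 1637 and 1764 CPM, nor were the neurofilament genes Nefl and Nefm. Prph, the peripherin gene of peripheral neurons, was spread over the replicates, at 26.5, 2.74 and 6.63 CPM against 0.0662, 2.43 and 0.724 CPM (log2 fold change 3.46, SE 1.11, adjusted p = 0.0144); without Neurog3 day 13 a, Control a or Control c it was not called (log2 fold change 2.10 without Neurog3 day 13 a).

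Of 21 neuronal RNA-binding genes tested, 16 rose and 1 fell, with a median log2 fold change of 3.45. Rbfox3, which encodes the nuclear protein NeuN, had 18.9, 44.3 and 27.9 CPM at Neurog3 day 13, against 0, 0.128 and 0 CPM in the controls, a ratio of 722 (95% counting interval 199.5 to 5965). Nova1, a splicing factor of neurons, had 115, 111 and 71.8 CPM against 6.49, 6.79 and 5.97 CPM (log2 fold change 3.95, SE 0.38, adjusted p = 9.24e-07). Srrm4, which promotes neuronal microexons, had 29.6, 69.6 and 65.2 CPM against 2.38, 2.75 and 2.29 CPM (log2 fold change 4.46, SE 0.52, adjusted p = 5.15e-06). The single member that fell was Ptbp1, a repressor of neuronal splicing, at 199, 242 and 149 CPM against 479, 289.7 and 341 CPM (log2 fold change -0.91, SE 0.27, adjusted p = 0.00947), and was not called without Control a (adjusted p = 0.0546). Its neuronal relative Ptbp2 was not called (log2 fold change 0.35, SE 0.25, adjusted p = 0.24).

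Genes of the release machinery rose. Of 36 presynaptic genes tested, 33 were higher at Neurog3 day 13 and 0 lower, with a median log2 fold change of 4.35 (4.13 at the bounds). Their summed level was 1546, 2036 and 1346 CPM, against 165, 174 and 185 CPM in the controls. Snap25, a membrane SNARE protein, had 39.0, 38.4 and 45.9 CPM against 0, 0 and 0.302 CPM (log2 fold change 8.51, SE 0.67, adjusted p = 1.96e-07), and Syn1, which tethers synaptic vesicles, 23.5, 40.1 and 16.3 CPM against 1.13, 0.769 and 2.11 CPM (log2 fold change 4.30, SE 0.45, adjusted p = 1.69e-06). The 3 not called were Syn3, Unc13b and Erc2.

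On the receiving side, 24 of 34 postsynaptic genes rose and 1 fell, with a median log2 fold change of 2.90. Shank3, a scaffold of excitatory synapses, had 50.7, 113 and 109.6 CPM at Neurog3 day 13, against 0.463, 2.82 and 1.75 CPM in the controls (log2 fold change 5.75, SE 0.80, adjusted p = 2.48e-05), and Gabra3, a GABA receptor subunit, 41.9, 52.1 and 60.6 CPM against 0.794, 1.54 and 1.33 CPM (log2 fold change 5.39, SE 0.35, adjusted p = 3.79e-08). The glutamate receptor subunit Gria3 was not called, at 63.6, 52.3 and 108 CPM against 112, 99.5 and 82.7 CPM, and neither was Homer1.

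Ion channel genes gave 32 higher and 2 lower of 39 tested, with a median log2 fold change of 3.90. Kcna1, an axonal potassium channel, had 122, 204 and 98.2 CPM against 0.463, 0.897 and 0.905 CPM (log2 fold change 7.53, SE 0.40, adjusted p = 1.09e-08), and Cacna1e, an R-type calcium channel, 83.1, 146 and 107 CPM against 0.0662, 0.192 and 0 CPM (log2 fold change 10.25). Among sodium channels, Scn1a and Scn9a fell but were each not called when certain single libraries were left out, and Scn2a was not called, at 5.06, 7.57 and 7.02 CPM against 4.24, 4.74 and 3.56 CPM. Over all potassium channel genes, those whose symbol starts with Kcn, 45 of 71 were higher and 5 lower.

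The clustered protocadherins, adhesion genes by which a neuron tells its own processes from those of others, gave 46 higher and 0 lower of 51 tested, with a median log2 fold change of 3.09. All 21 members of the beta cluster tested were called higher, between 2.77 for Pcdhb22 and 6.25 for Pcdhb10. Pcdhb22 had 43.0, 41.0 and 34.0 CPM in the Neurog3 day 13 libraries, against 3.24, 7.82 and 6.21 CPM in the controls. These genes are similar in sequence and partly overlap on the chromosome, so reads may be shared or lost among them. The family was picked out after its values were seen.

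Slc17a7 and Slc17a6, of the vesicular glutamate transporters, rose. Slc17a7, the vesicular glutamate transporter 1, had 25.7, 43.4 and 19.9 CPM at Neurog3 day 13, against 0, 0 and 0.241 CPM in the controls (log2 fold change 8.34, SE 0.83, adjusted p = 1.17e-06), and Slc17a6, the vesicular glutamate transporter 2, 2.78, 1.29 and 2.87 CPM against 0.596, 0.705 and 0.483 CPM (log2 fold change 1.95, SE 0.48, adjusted p = 0.00285). Per kilobase of exon Slc17a7 was at 5.50 and Slc17a6 at 0.428 CPM per kb. The remaining one, Slc17a8, did not pass the filter, with 3, 1 and 1 counts at Neurog3 day 13, against 10, 10 and 7 in the controls. Chat and Th, the enzymes that make acetylcholine and catecholamines, were called higher at low levels, 4.06, 1.40 and 0.787 CPM and 3.06, 1.34 and 0.899 CPM, each highest in library a. The GABA enzymes Gad1 and Gad2 did not pass the filter. Of the 16 transmitter genes tested, 10 rose and 3 fell, and the 3 that fell were Slc5a7, Ddc and Got1.

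Of 29 neurotrophin and guidance receptors tested, 23 rose and 1 fell, with a median log2 fold change of 3.18. Gfra3, the coreceptor for artemin on sensory and sympathetic neurons, had 271, 108 and 23.8 CPM at Neurog3 day 13, against 0, 0 and 0.121 CPM in the controls, a ratio of 3172 (95% counting interval 878 to 26200.4), with library a highest and c lowest. Robo1, a Slit receptor, had 122, 255 and 72.2 CPM against 22.4, 22.3 and 20.9 CPM (log2 fold change 2.78, SE 0.46, adjusted p = 0.00012). Nrp1, a receptor for semaphorins and VEGF, was the one that fell, to 64.1, 69.6 and 61.8 CPM, against 648, 128 and 226 CPM.

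Transcription factors of sensory and autonomic neurons were divided: 6 of 13 tested rose (46.2%) and 4 fell (30.8%). Over all genes 31.2% rose and 26.4% fell, so the lower share was near that over all genes. Of those listed, 10 genes, among them Tlx3 and Prdm12, did not pass the filter. Pou4f1, which encodes the sensory factor Brn3a, had 9.39, 11.5 and 12.2 CPM at Neurog3 day 13, against 0, 0.0641 and 0 CPM in the controls, a ratio of 522 (95% counting interval 93.4 to 20666). Its usual partner Isl1 fell instead, to 1.501, 0.806 and 1.91 CPM, against 4.83, 2.63 and 3.38 CPM (log2 fold change -1.36, SE 0.41, adjusted p = 0.0103), though not with library totals (adjusted p = 0.0526). Runx1 fell to 13.7, 12.3 and 7.59 CPM, against 38.9, 46.1 and 44.7 CPM.

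**Figure D2:**
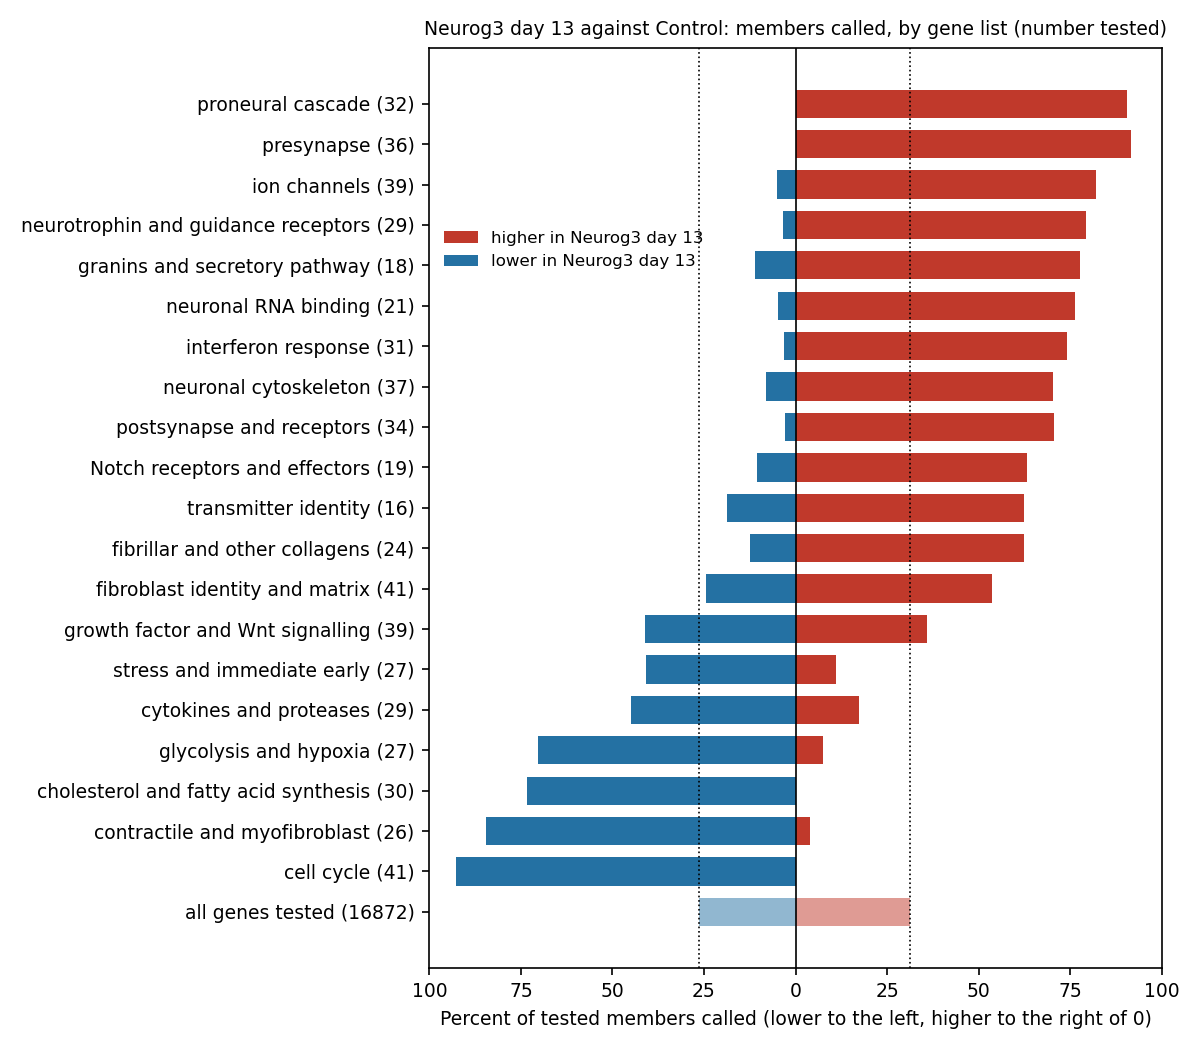
Percent of tested members called higher (red, right) or lower (blue, left) in Neurog3 day 13 against control libraries for 20 gene lists, with the number tested in brackets; dotted lines mark the shares over all 16872 genes, 31.2% and 26.4%. The presynaptic and proneural lists lie nearly wholly on the right, and the cell cycle, contractile and cholesterol lists on the left.

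Rest, the repressor of neuronal genes outside the nervous system, was not called, at 49.3, 70.2 and 54.4 CPM against 58.5, 62.8 and 69.3 CPM in the controls (log2 fold change -0.13, SE 0.17, adjusted p = 0.535). In the wider list of REST partners and chromatin genes that change during neuronal differentiation, 13 of 24 rose and 4 fell, with a median log2 fold change of 0.85. Smarca2, an ATPase of the BAF remodelling complex, had 234, 259 and 179 CPM against 28.9, 42.5 and 32.6 CPM (log2 fold change 2.69, SE 0.33, adjusted p = 8.15e-06), and Smarcc2 209.8, 301 and 219.6 CPM against 77.1, 81.7 and 99.3 CPM. Actl6a, the BAF subunit of proliferating progenitors, fell to 56.1, 38.2 and 43.4 CPM, against 93.5, 66.9 and 75.2 CPM (log2 fold change -0.77, SE 0.21, adjusted p = 0.00469), as did Hdac1 and Ezh2. Dnmt1 was called lower too, but not with library totals (log2 fold change -0.41, adjusted p = 0.131), nor without Neurog3 day 13 a or c or Control a (adjusted p 0.0682 to 0.133).

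Collagen transcripts were higher in the Neurog3 day 13 cultures than in the controls. Of 24 listed collagens, 15 were higher at Neurog3 day 13 and 3 lower, with a median log2 fold change of 1.97. Their summed level was 22381, 43270.2 and 13496 CPM, against 4742, 5804 and 5169 CPM in the controls, so library b held the most and all 3 lay above every control. Col1a1, a chain of type I collagen, had 5333, 13582 and 3149 CPM against 610.2, 1612 and 1065 CPM (log2 fold change 2.75, SE 0.63, adjusted p = 0.00173), and Col3a1 5735, 9120.5 and 3840.0 CPM against 305, 553 and 423 CPM (log2 fold change 3.87, SE 0.42, adjusted p = 2.54e-06). Without library b the same number of collagens, 15, was called higher, with a median of 1.45. The cartilage collagens Col2a1 and Col10a1 fell.

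Other fibroblast and matrix genes went both ways, 22 of 41 higher and 10 lower, with a median log2 fold change of 0.99. Mfap4, a microfibril protein, had 6249, 3683 and 1184 CPM at Neurog3 day 13, against 17.7, 86.6 and 35.4 CPM in the controls (log2 fold change 6.31, SE 0.94, adjusted p = 4.61e-05). Dcn, the proteoglycan decorin, had 641, 391 and 594 CPM against 28.8, 152 and 56.7 CPM, and Sparc, a collagen-binding protein, 7447, 8535 and 4784 CPM against 1838, 1198 and 1354 CPM (log2 fold change 2.24, SE 0.31, adjusted p = 2.24e-05). Against these, the surface marker Thy1 fell to 49.7, 24.3 and 6.69 CPM, against 249, 401 and 462 CPM (log2 fold change -3.78, SE 0.54, adjusted p = 2.99e-05), and the intermediate filament Vim to 860.5, 589 and 437 CPM, against 8989, 4578 and 4762 CPM (log2 fold change -3.28, SE 0.48, adjusted p = 3.95e-05). Thbs1 and Cd44 fell by 4.55 and 4.47 on the log2 scale. Fn1 and Pdgfra were not called and their groups overlapped.

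The contractile apparatus of activated fibroblasts was lower as a group. Of 26 genes tested, 22 fell and 1, Smtn, rose, with a median log2 fold change of -2.54. The summed level was 3490.3, 3541 and 3478 CPM at Neurog3 day 13, against 25846, 16055 and 22275 CPM in the controls. Acta2, the smooth muscle actin, had 236, 185 and 123 CPM against 6135, 3342 and 4688 CPM (log2 fold change -4.70, SE 0.45, adjusted p = 8.36e-07), and Tagln 179, 129 and 147 CPM against 3126, 2554 and 3790.5 CPM (log2 fold change -4.38, SE 0.35, adjusted p = 2.24e-07). Tpm1, a tropomyosin, had 411, 279 and 324 CPM against 3485, 2243 and 3155 CPM. The actin genes are near-identical in sequence, so reads may have been shared among them. Srf, the factor that drives these genes, was not called, at 70.7, 83.5 and 67.9 CPM against 89.8, 74.5 and 109.6 CPM.

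Cell cycle genes fell: 38 of 41 were lower, 0 were higher, and the median log2 fold change was -2.21. Of the 41, Ccnd3, E2f1 and E2f2 were not called. Mki67, a marker of cycling cells, had 74.1, 64.9 and 64.4 CPM at Neurog3 day 13, against 419.6, 228 and 329 CPM in the controls (log2 fold change -2.26, SE 0.26, adjusted p = 3.69e-06), and Cdk1, the mitotic kinase, 60.1, 32.3 and 40.8 CPM against 272, 241 and 268 CPM (log2 fold change -2.55, SE 0.32, adjusted p = 1.04e-05). Neither gene was at 0 in any Neurog3 day 13 library. Among inhibitors and survival genes 8 of 27 rose and 8 fell, 29.6% each way, near the shares over all genes. Cdkn1b and Cdkn2c rose, Cdkn1b to 122, 118 and 106 CPM, against 57.0, 72.1 and 55.8 CPM, while Cdkn1a, Mdm2 and Bax fell, Cdkn1a to 78.8, 72.6 and 143 CPM, against 242, 226 and 251 CPM (log2 fold change -1.29, SE 0.25, adjusted p = 0.000445).

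Genes for making and turning over protein were lower as well. Of 88 ribosomal protein genes tested, 83 fell and 0 rose, and the median log2 fold change was -1.22. Under library totals 77 fell and the median was -0.92. Shares of counts were taken over a slightly different set, protein-coding genes with symbols of Rpl or Rps and then a digit, Rps6k kinases included. That set held 4.84%, 3.20% and 3.77% of the counts in the Neurog3 day 13 libraries, against 5.70%, 8.67% and 7.59% in the controls. Of 76 mitochondrial ribosome genes 54 fell, and of 49 proteasome genes 35 fell and 1 rose. Under library totals 36 of the mitochondrial ribosome genes fell, and 25 of the proteasome genes fell and 3 rose. Processed pseudogenes, copies of spliced transcripts, gave 310 lower and 26 higher of 728; reads of a gene and its copies cannot be told apart with certainty. These families were picked out after their values were seen.

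Glycolysis and hypoxia genes gave 19 lower and 2 higher of 27, with a median log2 fold change of -1.32. Ldha, which makes lactate, had 454, 221 and 234 CPM at Neurog3 day 13, against 1612, 1521 and 1782 CPM in the controls (log2 fold change -2.44, SE 0.31, adjusted p = 1.01e-05), and Pgk1 178, 98.3 and 101 CPM against 1115, 1305 and 1256 CPM (log2 fold change -3.28, SE 0.29, adjusted p = 4.25e-07); both have processed pseudogenes that may share their reads. Pfkm, the muscle and brain form of phosphofructokinase, rose to 85.4, 81.3 and 56.4 CPM, against 20.7, 26.7 and 25.5 CPM. Cholesterol and fatty acid synthesis gave 22 lower and 0 higher of 30, with a median of -1.70. Hmgcs1, an early enzyme of the pathway, had 115, 112 and 101 CPM against 369, 636 and 424 CPM (log2 fold change -2.12, SE 0.28, adjusted p = 1.43e-05), and Fdps 45.1, 35.9 and 28.0 CPM against 243, 519 and 356 CPM (log2 fold change -3.36, SE 0.33, adjusted p = 1.1e-06). The medium of the controls is not given in the sources used here, so the parts of factor and medium in these results cannot be told apart.

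Interferon response genes rose in 23 of 31 cases and fell in 1, Ifit2, with a median log2 fold change of 2.39. The libraries were uneven: the summed level of all 32 listed genes was 2079, 772 and 2038 CPM at Neurog3 day 13, against 615, 1070.0 and 771 CPM in the controls, so library b lay within the control range. Ifi27 had 326, 140.4 and 265 CPM against 4.30, 36.5 and 17.1 CPM (log2 fold change 3.66, SE 0.76, adjusted p = 0.000816). The antigen-presenting gene H2-D1 had 262, 84.2 and 119.6 CPM against 15.9, 34.9 and 34.7 CPM, and Bst2 111, 29.5 and 116 CPM against 7.42, 35.3 and 21.7 CPM, where library b lay between the controls. B2m was not called. Leaving out a single library moved the number called higher between 17 and 25.

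Macrophage markers set library a apart from b and c. The summed level of all 16 listed was 324, 33.5 and 19.8 CPM in Neurog3 day 13 libraries a, b and c, against 170.4, 256 and 198 CPM in the controls. In Neurog1 day 13 libraries a, b and c it was 134, 81.9 and 32.3 CPM, again highest in a. Of 15 markers tested, 1, Itgam, was called higher and 1, Cd14, lower; without library a, 11 were called lower and the median log2 fold change was -2.23 in place of 0.09. C1qb, a complement chain made by macrophages, had 571, 26 and 1 counts against 77, 99 and 85. Lyz2, the macrophage lysozyme, had 131, 8.97 and 6.35 CPM against 102, 187 and 137 CPM. Interferon sums were high in libraries a and c, and macrophage sums in a alone; the part of macrophage RNA in the interferon result was not tested.

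Inflammatory and wound genes went both ways. Of 29 cytokines, chemokines and proteases tested, 13 fell, 5 rose and 11 were not called, with a median log2 fold change of -1.25; without Control a or c, 3 rose. The summed level of all 34 listed, those below the expression filter included, was 2314, 3075 and 1412 CPM at Neurog3 day 13, against 3326, 2430 and 2670.1 CPM in the controls, so the groups overlapped. Ptgs2, the inducible prostaglandin synthase, fell to 1.89, 2.31 and 10.2 CPM at Neurog3 day 13, against 1334, 112 and 391 CPM in the controls (log2 fold change -6.99, SE 1.02, adjusted p = 3.78e-05), and Timp1 to 52.5, 18.9 and 10.4 CPM, against 401, 312 and 459.6 CPM. Mmp2, a gelatinase, rose to 785, 1122 and 297 CPM, against 63.0, 109.5 and 76.4 CPM. Stress and immediate early genes gave 11 lower and 3 higher of 27; at most 1 was higher without Neurog3 day 13 a, Control a or Control c. Hspb1, a small heat shock protein, fell to 10.7, 12.6 and 17.4 CPM, against 168, 169.5 and 209.9 CPM (log2 fold change -3.75, SE 0.29, adjusted p = 1.96e-07), while the immediate early gene Fos rose to 209.5, 72.8 and 109 CPM, against 69.7, 12.2 and 26.3 CPM (log2 fold change 1.85, SE 0.59, adjusted p = 0.0139). Without Neurog3 day 13 a, Control b or Control c, Fos was not called (log2 fold change 1.32 without Neurog3 day 13 a).

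Secreted growth regulators changed in both directions, with 14 of 39 higher (35.9%) and 16 lower (41.0%), beside 31.2% and 26.4% over all genes. Igfbp2, which binds insulin-like growth factors, rose to 493, 463 and 276 CPM, against 34.0, 32.9 and 32.2 CPM in the controls (log2 fold change 3.64, SE 0.29, adjusted p = 2.07e-07), and Igfbp7 fell to 91.0, 46.4 and 48.1 CPM, against 435, 433 and 477 CPM. Grem1, a BMP antagonist, fell to 11.3, 10.2 and 9.95 CPM, against 249.5, 188 and 302 CPM (log2 fold change -4.56, SE 0.43, adjusted p = 7.6e-07). Lysosome and autophagy genes gave 7 higher and 4 lower of 26, near the shares over all genes or below them. Psap, a lysosomal activator protein, rose to 765, 924 and 457 CPM, against 305, 247 and 269 CPM.

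Markers of other cell types were checked as well, beside shares over all genes of 31.2% higher and 26.4% lower. Of 8 epithelial genes tested, the 7 keratins and claudins fell and the factor Ovol1 was not called. Krt19 fell to 0.667, 0.107 and 0.225 CPM, against 119, 24.1 and 67.6 CPM in the controls (log2 fold change -7.70, SE 1.20, adjusted p = 6.9e-05). Of 11 neural progenitor genes 2 rose and 3 fell, with the lower share near that over all genes and the higher share below it. Nes fell to 3.06, 3.60 and 4.27 CPM, against 146, 43.9 and 92.3 CPM (log2 fold change -4.69, SE 0.51, adjusted p = 2.53e-06), and Sox2 was not called, with 8, 7 and 14 counts against 18, 15 and 24. Glial genes gave 4 higher (2 without Control c) and 3 lower of 12, near the shares over all genes. Gfap had 5, 3 and 4 counts at Neurog3 day 13, against 6, 6 and 3 in the controls. Neural crest and Schwann genes gave 3 higher and 1 lower of 13, both below the shares over all genes. Ngfr and Gfra3 were among those higher, and Sox10 was at 0.945, 0.537 and 0.225 CPM against 0, 1.09 and 0.302 CPM.

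Skeletal muscle genes gave 4 higher and 5 lower of 20, with a median log2 fold change of -0.68. The number lower was 9 without Neurog3 day 13 a, 2 without Neurog3 day 13 b or c and 3 without Control b, and the median lay between -1.24 and -0.24 when 1 library was left out. Myod1, the muscle determination factor, was at 2.78, 3.54 and 1.80 CPM against 0.397, 1.41 and 0.905 CPM (log2 fold change 1.57, SE 0.52, adjusted p = 0.0172), and was not called without Neurog3 day 13 b, Control a or Control c (log2 fold change 1.21 without Control a). Adipocyte genes gave 4 higher and 3 lower of 7, endothelial genes 1 and 3 of 8, cartilage and bone genes 3 and 3 of 8, and melanocyte genes 1 and 1 of 2. Spp1, encoding osteopontin, fell to 14.2, 1.07 and 0.506 CPM, against 763, 1086 and 1068 CPM (log2 fold change -7.53, SE 1.33, adjusted p = 0.00021).

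Some of the genes with the 10 largest fitted fold changes lay outside these lists. Where the controls held 0 counts the fitted value depends on the prior count, so these genes are not ranked, and genes with a few control counts, such as Sct, Nhlh1 and Gfra3, had larger ratios than some of the bounds given here. Mmd2 had 173, 146 and 117 CPM at Neurog3 day 13 over controls at 0, at least 2294-fold higher. Hpca, the calcium sensor hippocalcin, had 53.5, 76.4 and 50.7 CPM, at least 952-fold higher, and Hs3st2, a heparan sulfate sulfotransferase, 62.5, 123 and 38.0 CPM, at least 1185-fold higher. Ppp1r17, Tmem28, Igsf21 and the peptide gene Edn3 were also among the 10, each with 0 control counts. The 10 lowest fitted fold changes included those of Il1rl1, the IL-33 receptor, at 1.28, 0.645 and 1.80 CPM against 794, 479 and 635 CPM (log2 fold change -9.00, SE 0.66, adjusted p = 1.12e-07) and Hmga2, a chromatin protein of embryonic and growing cells, at 3.56, 2.58 and 5.84 CPM against 1619, 622 and 983 CPM. Esm1 and Lce1h fell to 0 counts in all 3 Neurog3 day 13 libraries.

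In absolute CPM, the 8 largest gains were Col1a1, Col3a1, Sparc, Col1a2, Neurog3, Mfap4, Fbn2 and Igf2 (Igf2 was not called without any 1 of Neurog3 day 13 a or b or Control a or c), and the 8 largest losses included Vim, Acta2, Tagln and the elongation factor Eef1a1, at 8919.9, 6768 and 6314 CPM against 14458, 17057 and 14162 CPM. Fbn2, a fibrillin, rose to 1130.5, 3427 and 781 CPM, against 70.2, 129 and 77.6 CPM (log2 fold change 4.27, SE 0.61, adjusted p = 3.17e-05). Among abundant genes that were not called, Eef2 had 2120.1, 2829 and 1716 CPM against 1999.9, 2503 and 2217 CPM (log2 fold change -0.01, SE 0.22, adjusted p = 0.968), and the nuclear RNA Malat1 908, 1000.1 and 1870.1 CPM against 1345, 958 and 1255 CPM.

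The late state was also compared directly with Neurog3 at day 1, when the factor was already expressed, at 1242, 5264 and 5074 CPM on day 13 and 1416, 3019.5 and 1293 CPM on day 1 (log2 fold change 1.02, SE 0.57, adjusted p = 0.14, not called). Of 16872 genes, 4887 were higher on day 13 (29.0%) and 4523 lower (26.8%). With library totals in place of TMM, 5916 were higher and 3459 lower, and the median over all genes moved by 0.24. Days in culture and medium differ between these groups too. Of the proneural genes, 24 were higher on day 13 than on day 1 and 1 was lower. Neurod1 had 22.7, 17.2 and 21.9 CPM on day 13, against 0.625, 2.67 and 1.83 CPM on day 1 (log2 fold change 3.57, SE 0.53, adjusted p = 9.66e-05), and Insm1 60.5, 72.7 and 62.1 CPM, against 1.46, 1.33 and 1.77 CPM (log2 fold change 5.41, SE 0.33, adjusted p = 3.31e-08). The member that was lower was the ligand Dll1, with 26.0, 43.7 and 40.1 CPM on day 13, against 86.4, 65.1 and 64.7 CPM on day 1 (log2 fold change -0.98, SE 0.25, adjusted p = 0.00404). Hes6 was not called, at 148, 99.8 and 109 CPM against 79.0, 154 and 64.7 CPM.

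Several genes were high on day 1 and low later, or the reverse. Gal, the galanin precursor, had 2.67, 1.72 and 1.29 CPM on day 13, against 747, 782 and 322 CPM on day 1 (log2 fold change -8.34, SE 0.52, adjusted p = 4.44e-08). All controls lay under both groups, at 0.0662, 0 and 0.121 CPM. Map2 had 59.8, 88.7 and 81.8 CPM on day 13, against 4.51, 2.61 and 3.29 CPM on day 1 (log2 fold change 4.47, SE 0.48, adjusted p = 3.28e-06). Its day 1 level was under that of every control and its day 13 level above. Fos followed the same order, with 209.5, 72.8 and 109 CPM on day 13, against 5.55, 6.55 and 6.08 CPM on day 1 (log2 fold change 4.42, SE 0.67, adjusted p = 6.35e-05). Cdkn1a had the opposite one, 78.8, 72.6 and 143 CPM on day 13, against 389, 511 and 356 CPM on day 1 (log2 fold change -2.09, SE 0.26, adjusted p = 9.63e-06). Rest was lower on day 13, at 49.3, 70.2 and 54.4 CPM against 92.3, 88.4 and 105 CPM on day 1 (log2 fold change -0.72, SE 0.17, adjusted p = 0.00287).

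Synaptic genes were higher on day 13 than on day 1 in most cases. Of the presynaptic genes, 30 of 36 were higher on day 13 than on day 1. Snap25 had 39.0, 38.4 and 45.9 CPM on day 13, against 0, 0 and 0.127 CPM on day 1, and Dcx 141, 226 and 202 CPM, against 0, 1.22 and 0.253 CPM (log2 fold change 8.50, SE 0.86, adjusted p = 1.99e-06). Slc17a7 was present at both times, at 25.7, 43.4 and 19.9 CPM on day 13 and 3.75, 11.5 and 4.68 CPM on day 1 (log2 fold change 2.15, SE 0.52, adjusted p = 0.00266). Cell cycle genes were lower on day 13 than on day 1 in 39 of 41 cases, and contractile genes in 16 of 26.

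**Figure D3:**
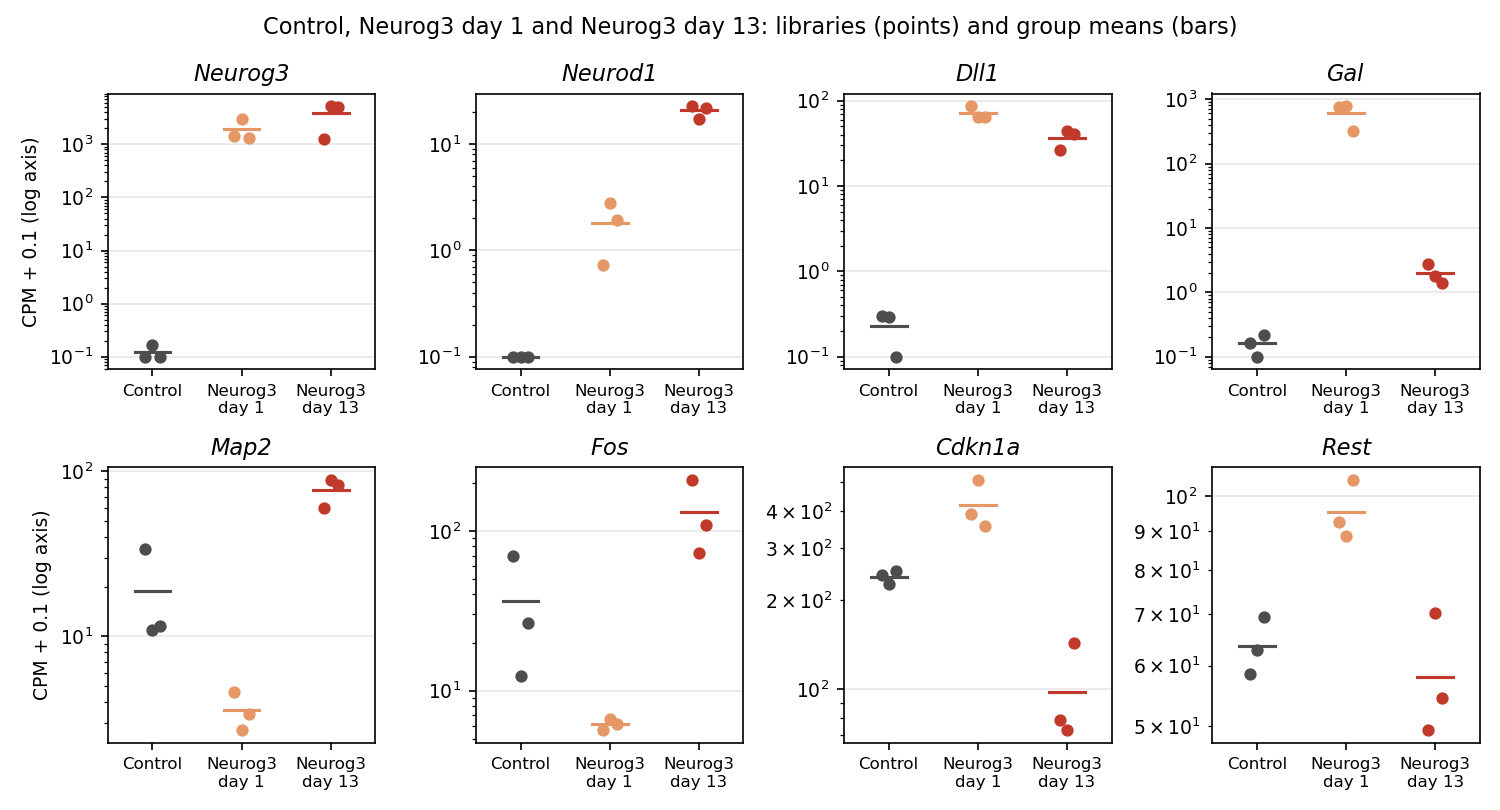
Normalised counts (CPM + 0.1, log axis) of 8 genes in control, Neurog3 day 1 and Neurog3 day 13 libraries, 3 each (points), with group means (bars). Neurod1 is highest on day 13, Dll1 and Gal are highest on day 1, Map2 and Fos dip below every control on day 1, and Cdkn1a and Rest are highest on day 1.

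At day 13 few genes were called between cultures with Neurog3 and cultures with Neurog1. The log2 CPM of their libraries correlated at 0.951 to 0.981 across genes. In edgeR's quasi-likelihood test 1 gene was higher with Neurog3 (0.00593% of 16872) and 3 were lower (0.0178%), and 934 genes were at an unadjusted p under 0.05. The pair of factors themselves made up 2 of the 4: Neurog3 had 1242, 5264 and 5074 CPM against 0.0561, 0 and 0.152 CPM in the Neurog1 day 13 libraries, and Neurog1 0, 0.645 and 0 CPM against 1277, 3144 and 4068 CPM. The others were lower with Neurog3. Ccbe1, a secreted protein of lymphatic development, had 9.78, 19.4 and 18.2 CPM in the Neurog3 day 13 libraries, against 37.4, 81.9 and 90.4 CPM in the Neurog1 day 13 libraries (log2 fold change -2.14, SE 0.33, adjusted p = 0.0366), and Fam19a1, a chemokine-like brain peptide, 1.11, 1.77 and 1.12 CPM against 4.43, 5.05 and 5.87 CPM (log2 fold change -1.93, SE 0.28, adjusted p = 0.0262). In both genes the 2 groups did not overlap, but the share of all genes without overlap between these groups was not counted. Leaving out 1 library gave adjusted p-values of 0.00334 to 0.265 for Ccbe1 and 0.028 to 0.205 for Fam19a1: Ccbe1 kept the call without Neurog1 day 13 a, and Fam19a1 without Neurog1 day 13 a or Neurog3 day 13 b.

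Libraries with the same letter deviated together in the day 13 groups, so they were also fitted as pairs, though no label states such a pairing. Their deviations from the group means correlated at 0.58, 0.521 and 0.575. The number of genes called was 6 with the letter as a block over all 15 libraries, and 407 (159 higher and 248 lower with Neurog3) with the block on the 6 day 13 libraries. DESeq2 called 83 without a block. The paired fit of 6 libraries tested 15860 genes, of which 2.57% were called, 1.0% higher and 1.56% lower with Neurog3. Of the 772 list members in that fit, 47 (6.09%) were called, 14 higher and 33 lower, Neurog1 itself among the lower. The lists were chosen with earlier results of these data known, so their share is no test against that over all genes. With Neurog3, Cntn2, an axonal adhesion protein, was lower at 21.3, 28.6 and 17.6 CPM, against 69.2, 128 and 92.3 CPM with Neurog1 (paired log2 fold change -2.07, SE 0.14, adjusted p = 0.00151), and so was Mapt, the tau protein, at 43.0, 61.8 and 23.1 CPM against 66.6, 189 and 115 CPM (adjusted p = 0.0302). Gfra3 was higher with Neurog3, at 271, 108 and 23.8 CPM against 96.6, 26.9 and 11.2 CPM (paired log2 fold change 1.56, SE 0.16, adjusted p = 0.00700), as was the collagen gene Col9a1, at 223, 129 and 69.4 CPM against 52.8, 17.0 and 18.0 CPM (2.33, SE 0.18, adjusted p = 0.00248). These 4 genes were named after their values were seen, and without the block they missed the threshold in the fit of all 15 libraries and by DESeq2. They also missed it in edgeR's quasi-likelihood test with the letter as a block over all 15 libraries. There the adjusted p was 0.196 for Cntn2, 0.154 for Mapt, 0.539 for Gfra3 and 0.255 for Col9a1. With no filter and no block, Cntn2, Mapt and Col9a1 were called (adjusted p = 0.0262, 0.00903 and 0.00438) and Gfra3 was not (0.194).

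Several neuronal genes had lower means with Neurog3 than with Neurog1 without being called. Stmn2, a tubulin-binding protein of axons, had 77.3, 55.8 and 39.7 CPM in the Neurog3 day 13 libraries, against 94.3, 188 and 166 CPM in the Neurog1 day 13 libraries (log2 fold change -1.38, SE 0.35, adjusted p = 0.3). Neurod1 had 22.7, 17.2 and 21.9 CPM against 30.5, 41.0 and 93.6 CPM (log2 fold change -1.42, SE 0.47, adjusted p = 0.576). A p above the threshold does not show that the factors act alike; with 3 libraries a group the SE of such differences was about 0.35 for Stmn2 and 0.47 for Neurod1 on the log2 scale.

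**Figure D4:**
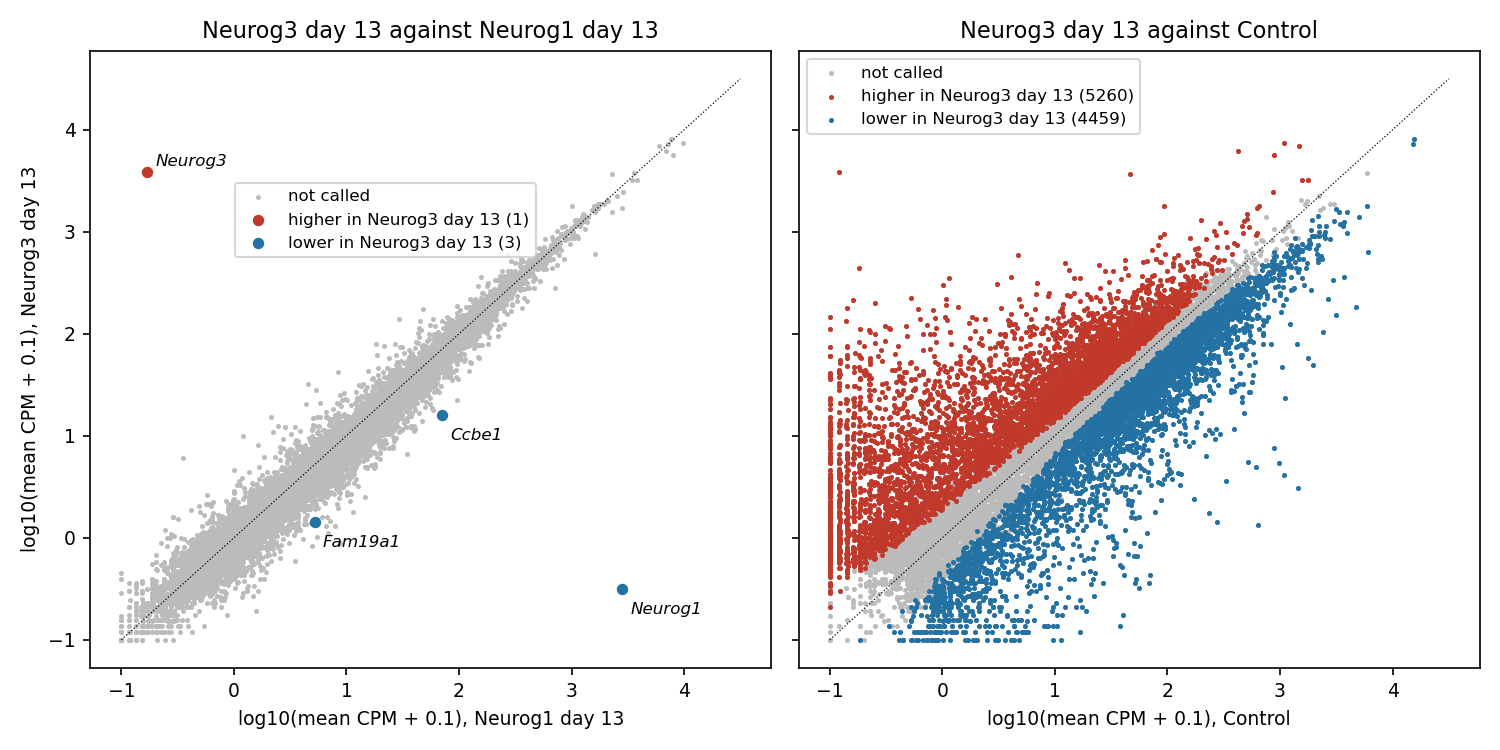
Mean CPM of each gene tested in the Neurog3 day 13 libraries (vertical axis, log10 of CPM + 0.1) against the Neurog1 day 13 libraries (left) and the controls (right); red and blue points were called higher and lower with Neurog3 at day 13. On the left 4 genes are called, all named; on the right 5260 and 4459.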

How the data were processed

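PolyA RNA of 15 libraries, 5 groups of 3, was measured by RNA sequencing. The deposited table holds raw counts per gene, whole numbers that the authors did not normalize; per the submitters' processing notes CASAVA, HISAT2, featureCounts and mm10 were used, with versions and strand setting not given in the sources used here, so antisense and overlapping genes and near-identical copies are uncertain. Symbols came from GENCODE M21 for 42548 of 43432 IDs; the 884 unmatched IDs held 0.12% of counts. From the counts, edgeR 4.0.16 (R 4.3.3) filtered genes with filterByExpr, scaled libraries by TMM and ran the quasi-likelihood test on all 15 libraries with 1 term per group; p-values were adjusted by Benjamini-Hochberg over 16872 genes, and a gene was called at an adjusted p under 0.05. CPM uses TMM-scaled library sizes. The test was checked on simulated counts.

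Letters were used to pair the Neurog3 and Neurog1 day 13 libraries, since same-letter deviations correlated in all 3 pairs (given with that result). No label states this pairing. It was read from the same expression values, so the paired p-values depend on it. With the controls the same correlations were negative (-0.146, -0.078 and -0.071). With Neurog3 day 1 they were positive but lower (0.242, 0.065 and 0.13). Alternatives were RLE factors, library totals, no filter, a stricter filter (mean of 1 CPM), 6 libraries only, the letter as a block, each library left out, and DESeq2 1.42.0.

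Named genes are 50 anchors, the 10 largest called changes each way with at least 5 CPM and no overlap, the 8 largest gains and losses in CPM, and in each of 36 lists the 4 called members with the most counts each way and 2 not called. The most abundant genes not called and the largest called changes against Neurog1 day 13 were added. Many genes given above, such as Neurod2, Nhlh1 and Dll4, lie outside this rule. The count of named genes kept or lost by setting does not cover them. Some genes that this rule names are not reported here. Genes, lists and families were chosen with earlier results of these data known. Promoter windows are from RefSeq (GRCm38.p6).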

Additional observations from a re-analysis of the deposited data

Results flagged for a closer look

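Against the Neurog1 day 13 cultures, 4 genes were called different by edgeR's quasi-likelihood test. Neurog3 had a log2 fold change of 15.6 and Neurog1 one of -13.61, each the factor its own cultures had been given. Ccbe1 was lower with Neurog3 by a log2 fold change of -2.14, and Fam19a1 by -1.93.

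Only the anchor genes, chosen with earlier results of these data known, were searched for a change of side between day 1 and day 13. For 5 of them the day 1 and day 13 Neurog3 libraries lay on opposite sides of all controls, and the direct test of day 13 against day 1 was past the threshold. How many of all the genes tested did so was not counted. Day 13 was higher for Map2 (log2 fold change 4.47), Fos (4.42), Stmn2 (2.54) and the muscle factor Myod1 (4.59), and lower for Cdkn1a (-2.09). The groups also differ in medium and days in culture, and the part of these in the difference was not tested.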

How the results depend on the processing

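Against the controls, 8004 (replicate block on 6 libraries) to 10278 genes (replicate block on 15 libraries) were called, and 8535 to 9486 when 1 library was left out. In every alternative 0 genes called in both fits changed direction. Against Neurog1 day 13, 4 genes were called, 93 with no filter, 2 with 6 libraries only, 407 with the replicate block on 6 libraries, 83 with DESeq2, and 2 to 6 when 1 library was left out; the cause was not tested. The replicate block on 15 libraries called 6 there and 9996 against Neurog3 day 1. Of 254 named genes called against the controls, 204 were called in every alternative that tested them and 50 were lost in at least 1. Among the 50 were Dnmt1, Got1, Scn1a, Scn9a, Cd14, Stmn2, Ccbe1 and Fam19a1, and 0 named genes reversed. Of all 333 named genes tested, 326 had a value in the fits of 6 libraries and 329 with the stricter filter.

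With library totals the median log2 fold change turned to 0.182 for cell cycle inhibitors and to 0.185 for glial genes. That of neural crest and Schwann genes, 0.10, turned to -0.289 (stricter filter), -0.124 (6 libraries only), -0.226 (replicate block, 6 libraries), -0.139 (replicate block) and, with 1 library left out, lay between -0.341 and 0.2. Macrophage markers turned on library a, as given above. Nothing here separates Neurog3 from medium and time, and low genes rest on few counts.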
